A study of Homo sapiens and Mus musculus with 36 samples.

Results

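The genes described here encode nuclear subunits of mitochondrial complex I, NADH:ubiquinone oxidoreductase. They were the genes whose array symbol is NDUFA, NDUFB, NDUFC, NDUFS or NDUFV followed only by digits, in human or mouse case, which leaves out the NDUFAF assembly factors. Each gene was represented by the probe set with the highest mean over the arrays of its species, among probe sets that carry a single symbol. In mouse liver 34 of 18193 genes met the rule, and in human HepaRG cells 32 of 19775. Ndufa4 is among the mouse genes although its product is now assigned to complex IV, and the human table lists that gene as COXFA4. Other subunit genes without such a probe set were not analysed here. The probe sets were bright: Ndufb4 was the only member in the dimmest 1 in 3 of all genes in mouse liver, and in HepaRG cells 0 members were.

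Complex I is the entry point of electrons from NADH into the respiratory chain. Its matrix arm holds an N module, where NADH is oxidised on a flavin, and a Q module, which passes the electrons along iron-sulfur clusters to ubiquinone; its membrane arm pumps protons. The core subunits of the membrane arm are encoded by mitochondrial DNA, the core subunits of the matrix arm are nuclear, and the remaining nuclear subunits are accessory proteins that surround this core. Hepatocytes are rich in mitochondria, and hydrophobic bile acids and several cholestatic drugs are known to disturb mitochondrial respiration.

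The series holds 36 Affymetrix 3′ expression arrays. Of these, 12 came from the livers of Sv129 mice sampled 6 weeks after surgery, 6 after ligation of the common bile duct (CBDL) and 6 after a sham operation that exposed the duct without tying it. HepaRG, a bipotent human liver tumour line used as a substitute for hepatocytes, was plated from cryopreserved differentiated stocks and exposed for 72 h in 8 groups of 3 arrays. The groups were the vehicle control, a bile acid mixture concentrated 50 times (BA), 60 µM atazanavir (ATA, an HIV protease inhibitor), 20 µM cyclosporin A (CsA, a calcineurin inhibitor), 30 µM nefazodone (NEFA, an antidepressant), and each drug together with the mixture (ATA+BA, CsA+BA and NEFA+BA). The study asked how well a described sequence of events leading to cholestatic liver injury holds across such conditions. HepaRG is 1 cell line, the series describes 3 HepaRG batches, and no source used here states whether a replicate number marks a batch. P-values in the cells therefore measure the spread between these cultures only.

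Values are log2 signals, so a difference of 1 is a doubling, and differences are given as the first-named group minus the second. A gene was called higher or lower at an adjusted p under 0.05 in limma, with Benjamini-Hochberg adjustment over all genes of the species. The albumin-type hepatocyte markers were bright in all mouse livers (mean over 6 markers 13.8 to 13.9 in both groups), and in control HepaRG cells 7 such markers averaged 12.4 to 12.7. The sham liver of replicate 2 had intestinal epithelial markers a median of 3.62 above the other 5 sham livers, and the CBDL liver of replicate 1 had neutrophil markers 2.37 above the other 5. In HepaRG cells the members' median stood apart in 1 array: in NEFA replicate 3 it lay 0.25 above the control mean, against -0.01 and 0.01 in the other NEFA arrays. Counts of called members in the comparisons that hold these arrays are given with and without them. Overlaps of calls and differences of single genes include these arrays unless stated.

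In ligated mouse liver, complex I subunit RNA was lower. Of the 34 members 21 were lower and 0 were higher than in sham liver, against 21.1% of all genes lower and 20.5% higher. The median member difference was -0.23 (range -0.60 to 0.06), beside a median of -0.05 over all genes. For 19 members every CBDL value lay below every sham value, as for 8.04% of all genes. Without CBDL replicate 1 and sham replicate 2, 20 members were called, all lower.

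Ndufa12, an accessory subunit of the matrix arm near the N module, had the largest difference. Its lowest, median and highest log2 values were 10.53, 10.88 and 10.97 in CBDL liver and 11.37, 11.42 and 11.51 in sham liver. Every CBDL value lay below every sham value, a difference of -0.60 (SE 0.07, 1.51-fold, limma adjusted p = 3.37e-05). Ndufs7, the Q module core subunit that carries the last iron-sulfur cluster before ubiquinone, measured 10.58, 10.84 and 10.92 in CBDL against 11.19, 11.37 and 11.69 in sham liver. The groups were again apart, by -0.59 (SE 0.09, 1.51-fold, limma adjusted p = 1.94e-04).

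Members of the distal membrane arm followed. Ndufb10, which faces the intermembrane space, measured 10.47, 10.57 and 10.62 after ligation and 10.89, 11.07 and 11.22 after sham surgery, a difference of -0.50 (SE 0.07, limma adjusted p = 9.18e-05). Ndufb5 measured 11.37, 11.51 and 11.66 against 11.88, 11.97 and 12.14, lower by 1.39-fold. Ndufb9, a subunit of the LYR motif family, measured 12.04, 12.10 and 12.26 against 12.45, 12.54 and 12.64, lower by 1.34-fold. In these 3 genes no CBDL liver reached the lowest sham liver. Ndufa5, an accessory subunit of the Q module, measured 10.68, 10.87 and 10.96 against 11.05, 11.24 and 11.38, lower by 1.31-fold without overlap.

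By position in the enzyme, all 6 measured core subunits were lower. Besides Ndufs7 these were Ndufs1 (-0.37), Ndufv2 (-0.35), Ndufs3 (-0.33) and Ndufs8 (-0.27), each with groups that did not overlap, and Ndufv1 (-0.20, limma adjusted p = 0.037), the flavin-binding subunit, whose groups overlapped. The Ndufv1 call was lost when any of 7 arrays was left out (CBDL replicates 1, 3, 4 or 5, or sham replicates 1, 3 or 5), with differences of -0.17 to -0.21 and adjusted p of 0.054 to 0.079. Of the other members, 4 of 8 in the matrix arm, 3 of 8 in the proximal membrane arm and 8 of 11 in the distal membrane arm were lower. The calls for Ndufb6 and Ndufb1 also depended on single arrays: Ndufb6 (-0.21, adjusted p = 0.047) had an adjusted p of 0.059 to 0.082 without any 1 of 10 arrays (CBDL replicates 1, 3, 4 and 6 and all 6 sham replicates), and Ndufb1 (-0.17) had 0.055 without CBDL replicate 2 and 0.050 without sham replicate 1. Only Ndufa2 (0.06) and Ndufc1 (0.04) had differences above 0, and neither was called.

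**Figure D1:**
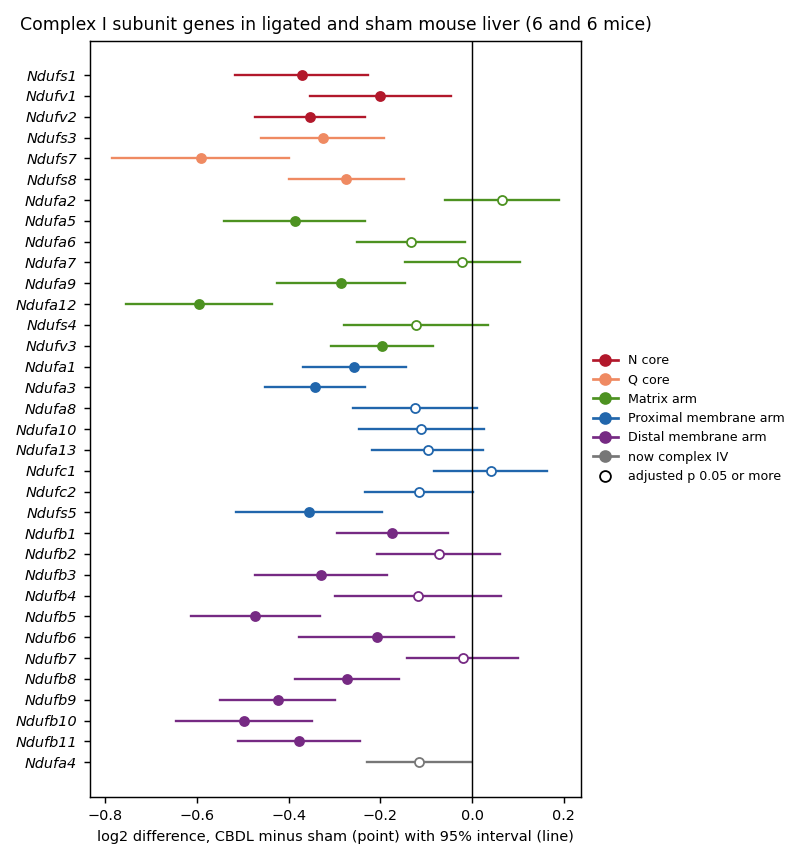
Log2 difference between CBDL and sham liver (x axis, 6 mice per group) for each of the 34 complex I members (y axis), with 95% intervals as lines and colours for the place of the subunit in the enzyme; filled points have a limma adjusted p under 0.05. The 21 filled points lie left of 0, down to -0.60 for Ndufa12, and the 6 core subunits at the top are all filled.

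The rest of the respiratory chain measured on the same arrays moved the same way. Of 36 genes of complexes II to V, 22 were lower and 0 higher (median -0.20), against 21.1% and 20.5% of all genes. The lower genes were 3 of 4 in complex II, 7 of 9 in complex III, 4 of 9 in complex IV and 8 of 14 in ATP synthase. Ndufab1, the acyl carrier protein bound to complex I and outside the rule, was lower by 0.42 on the log2 scale (limma adjusted p = 2.12e-04). Of 18 complex I assembly factors 6 were lower and 2 higher, against 21.1% and 20.5% of all genes. The largest falls were in Ndufaf4 (-0.69), Ecsit (-0.69) and Foxred1 (-0.45), which act in building the matrix and membrane arms. Of the named regulators of mitochondrial genes, Nrf1 was lower (-0.28, limma adjusted p = 0.011), while the coactivator Ppargc1a (0.26), Ppargc1b (-0.14), Gabpa (-0.14), Tfam (-0.06) and Esrra (-0.04) were not called.

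Markers of other cells differed between the same livers, where 20.5% of all genes were higher and 21.1% lower. Of 7 stellate cell and fibroblast markers 4 were higher (median 1.36), with array means of 8.94 to 9.43 in CBDL and 7.40 to 8.38 in sham liver. Of 7 cholangiocyte markers 3 were higher (array means 5.73 to 7.55 against 5.07 to 6.31), and of 7 macrophage markers 4 were higher and 1 lower (8.67 to 9.73 against 7.84 to 8.44). The array means of 5 neutrophil markers were 6.04 to 8.15 in CBDL and 5.54 to 6.01 in sham liver, without overlap. Other lists held markers that were lower after ligation. Both erythroid markers fell (array means 6.21 to 6.85 in CBDL against 7.07 to 7.17 in sham liver), and so did 1 of 3 pancreatic acinar markers (5.89 to 6.13 against 6.62 to 6.95); these array means did not overlap. Of 5 endothelial markers 3 were lower (7.66 to 8.26 against 7.93 to 8.35). Of 6 hepatocyte markers 0 were called (median -0.02). In a bulk sample, fewer cells of a type and less RNA per cell cannot be told apart, and the part of these cell types in the complex I differences was not tested.

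In HepaRG cells the bile acid mixture alone left 0 of 32 members called, where 10.1% of all genes were called. At an unadjusted p under 0.05 there were 5 members, and other settings of the analysis called 1 or 2. The median member difference was 0.03 (range -0.27 to 0.34), beside 0.01 over all genes. NDUFS3, a Q module core subunit, had the largest difference: it measured 9.65, 9.57 and 9.55 in control cells and 9.98, 9.89 and 9.91 with the mixture. The mixture arrays all lay above the control arrays, by 0.34 (SE 0.11, 95% interval 0.11 to 0.56), with a limma adjusted p of 0.053. With the replicate number as a block, as the arrays of equal number deviated together in this comparison, the adjusted p was 0.046. The other core subunits were NDUFS7 at -0.27 (95% interval -0.48 to -0.07), NDUFV1 at -0.08, NDUFV2 at -0.08 and NDUFS1 at 0.02, none of them called.

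For the 3 drugs without the mixture, many of the shares of members called lay near those of all genes. The comparisons share the control arrays, and the drug doses differ. After atazanavir 9 members were higher and 1 lower (28.1% and 3.12%), against 22.2% of all genes higher and 13.2% lower (median member difference 0.07). NDUFA12 measured 11.04, 11.07 and 10.96 in control cells and 11.60, 11.56 and 11.44 with atazanavir. The groups were apart by 0.51 (SE 0.07, 1.42-fold, limma adjusted p = 6.61e-06). NDUFA8, a cysteine-rich subunit on the intermembrane side of the proximal arm, measured 9.61, 9.55 and 9.42 against 10.07, 9.92 and 9.997, higher by 0.46 (limma adjusted p = 6.61e-04). NDUFA6, a LYR protein of the matrix arm, measured 11.05, 11.001 and 10.96 against 11.47, 11.39 and 11.39, higher by 0.41. NDUFB10 measured 10.53, 10.40 and 10.38 against 10.93, 10.82 and 10.74, higher by 0.39. In all 4 genes the atazanavir arrays lay above the control arrays. The 10 calls were accessory subunits, which make up most of the members. Of the 5 core subunits 0 were called, and a difference between core and accessory subunits was not tested. The core subunits ranged from NDUFV1 at -0.24 to NDUFS3 at 0.23, with NDUFS1 at 0.10, NDUFS7 at 0.02 and NDUFV2 at -0.02. NDUFV1 passed as lower with the dimmest 1 in 3 of genes left out and with only these 2 groups fitted. The 1 lower call, NDUFA11 (-0.17, limma adjusted p = 0.033), a membrane arm subunit, was lost without control replicate 1 or 3 or ATA replicate 3, with adjusted p of 0.073 to 0.186.

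After cyclosporin A 7 members were higher and 7 lower (21.9% each), against 22.2% and 18.5% of all genes. Without CsA replicate 2, or without control replicate 3, there were 6 higher and 4 lower. NDUFV3, the small accessory subunit beside the flavin site, measured 8.94, 8.998 and 8.87 in control cells and 9.48, 9.56 and 9.60 with cyclosporin A. It was higher by 0.61 (SE 0.07, 1.53-fold, limma adjusted p = 2.18e-07), with no overlap. NDUFB1, a distal arm subunit, measured 11.83, 11.78 and 11.85 against 11.51, 11.11 and 11.54, a difference of -0.43 (SE 0.11, limma adjusted p = 0.00227). NDUFV2, an iron-sulfur core subunit of the N module, measured 11.11, 11.25 and 11.18 against 10.82, 10.72 and 10.81, a difference of -0.40 (limma adjusted p = 1.90e-04). Both fell without overlap. NDUFA5 measured 10.91, 11.05 and 10.95 against 10.93, 9.80 and 10.68. Its difference of -0.50 (limma adjusted p = 0.038) rested on CsA replicate 2, without which it was -0.17 (adjusted p = 0.375), and the call was also lost without any 1 of the control arrays (0.058 to 0.105). NDUFS1 was also lower (-0.21, adjusted p = 0.033), a call lost without CsA replicate 2 (0.190) or control replicate 2 or 3 (0.128 and 0.063). NDUFS3 (-0.23), NDUFV1 (-0.20) and NDUFS7 (0.20) were not called, though NDUFS3 passed without CsA replicate 3 (-0.33, adjusted p = 0.029).

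Among the single drugs nefazodone gave the widest range of member differences. Of the 32 members 10 were higher and 11 lower (31.2% and 34.4%), against 25% and 20.6% of all genes, and the differences ran from -0.95 to 0.88. Without NEFA replicate 1, or without control replicate 2, 10 were higher and 6 lower, and without NEFA replicate 3, 8 were higher and 13 lower. NDUFB3 measured 10.32, 10.30 and 10.37 in control cells and 9.32, 9.25 and 9.57 with nefazodone, lower by 1.93-fold (SE 0.07 on the log2 scale, limma adjusted p = 4.39e-10). NDUFA2, a thioredoxin-fold subunit of the N module, measured 10.83, 10.76 and 10.81 against 9.85, 9.87 and 10.06, lower by 1.83-fold. NDUFV3 measured 8.94, 8.998 and 8.87 against 9.73, 9.78 and 9.94, higher by 1.84-fold. NDUFS4, the matrix arm subunit whose loss causes Leigh syndrome, measured 9.45, 9.49 and 9.46 against 10.28, 10.29 and 10.42, higher by 1.82-fold (limma adjusted p = 1.60e-10). No nefazodone value of these 4 genes overlapped the control values.

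By position in the enzyme, nefazodone gave 7 higher and 3 lower of 14 members in the matrix arm, and 3 higher and 8 lower of 18 in the membrane arm. The difference between the arms was not tested. Without NEFA replicate 1, or without control replicate 2, the lower members were 1 in the matrix arm and 5 in the membrane arm, and without NEFA replicate 2 they were 3 and 5. Without NEFA replicate 3 the lower members were 4 and 9, and the higher members 7 and 1. Among the core subunits NDUFS7 (0.54) and NDUFS1 (0.42) were higher and NDUFV2 (-0.24, limma adjusted p = 0.012) lower, and NDUFV1 (0.17) and NDUFS3 (-0.06) were not called. Without NEFA replicate 3, NDUFS3 passed at -0.23 (adjusted p = 0.034). The NDUFV2 call was lost without control replicate 2 (0.060) or NEFA replicate 1 (0.096). For some members, probe sets of the same gene disagreed. A dimmer probe set of NDUFA6 was lower by 0.30 on the log2 scale where the chosen one was higher by 0.76, and the dimmer probe sets of NDUFS1 included 1 at -0.33 (adjusted p over probe sets = 0.021) and 1 at -0.55 (0.054). With all probe sets of NDUFS1 averaged, its difference turned to -0.09 (limma adjusted p = 0.549). NDUFB4, a distal membrane arm subunit called lower (-0.21), stood at 0.03 with its probe sets averaged (limma adjusted p = 0.761).

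**Figure D2:**
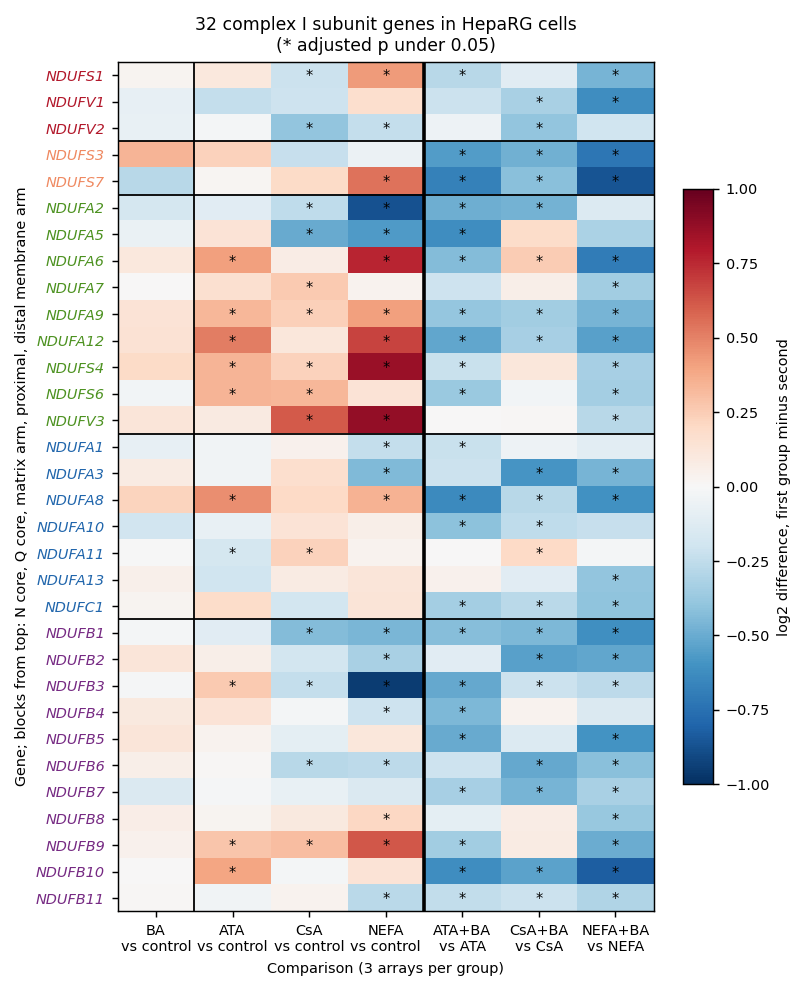
Log2 differences (colour, first group minus second, limited to -1 to 1) of the 32 HepaRG members (rows, ordered from the N module core to the distal membrane arm) in 7 comparisons (columns); an asterisk marks a limma adjusted p under 0.05. The first column holds no asterisk, the drug columns mix red and blue, and the last 3 columns, where the mixture was added to a drug, are mostly blue with 22, 20 and 25 asterisks.

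Adding the mixture to a drug lowered complex I genes with each of the 3 drugs. These 3 comparisons share no arrays. With atazanavir 22 of 32 members were lower and 0 higher, against 10.3% of all genes lower and 8.95% higher. With cyclosporin A 18 were lower and 2 higher, against 18.4% in each direction. With nefazodone 25 were lower and 0 higher, against 7.92% lower and 7.55% higher. The median member differences were -0.34, -0.23 and -0.40, beside -0.01 over all genes each time. Without NEFA replicate 3 the count with nefazodone was 19, all lower.

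NDUFS7 measured 8.58, 8.51 and 8.40 with atazanavir and 7.84, 7.77 and 7.85 with atazanavir and the mixture. It was lower by 1.60-fold (-0.67, SE 0.10, limma adjusted p = 4.61e-05). With nefazodone NDUFS7 measured 8.84, 8.92 and 9.31, and with nefazodone and the mixture 8.04, 8.16 and 8.28. That was a fall of 1.82-fold (limma adjusted p = 3.73e-06), and with cyclosporin A the difference was -0.41 (limma adjusted p = 0.00197). No array with drug and mixture reached the lowest array with that drug alone. The cyclosporin A call was lost when the gene's probe sets were averaged (-0.06, adjusted p = 0.562).

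NDUFA8 measured 10.07, 9.92 and 9.997 with atazanavir and 9.38, 9.24 and 9.44 after the mixture was added, lower by 1.56-fold. NDUFB10 measured 10.44, 10.43 and 10.84 with nefazodone and 9.75, 9.73 and 9.77 with the mixture, lower by 1.77-fold (limma adjusted p = 2.69e-06). Both genes had been above control with atazanavir alone. With nefazodone alone NDUFB10 was not called, at a group mean of 10.57 against 10.43 in control cells. With cyclosporin A the leading genes were NDUFA3, a proximal arm subunit, and NDUFB2, a distal arm subunit. NDUFA3 measured 10.19, 10.39 and 10.38 against 9.73, 9.78 and 9.68 with the mixture, lower by 1.51-fold (limma adjusted p = 8.91e-05). NDUFB2 measured 11.54, 11.70 and 11.74 against 11.08, 11.14 and 11.13, lower by 1.46-fold (limma adjusted p = 3.90e-05). The arrays of these pairs did not overlap.

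NDUFS3 measured 9.92, 9.75 and 9.79 with atazanavir and 9.25, 9.24 and 9.29 with atazanavir and the mixture. It measured 9.20, 9.34 and 9.55 with cyclosporin A and 8.87, 8.95 and 8.82 after addition. With nefazodone it measured 9.38, 9.33 and 9.89, and 8.77, 8.80 and 8.87 after addition. The differences were -0.56, -0.48 and -0.72, all called. NEFA replicate 3 held the highest nefazodone value of NDUFS3, as it did for NDUFS7 and NDUFB10, and the sizes with nefazodone include it. Over the 8 groups NDUFS3 was highest with the mixture alone and lowest with nefazodone and the mixture. Of the other core subunits, NDUFV1 was lower with cyclosporin A (-0.33) and nefazodone (-0.62) and at -0.22 with atazanavir, not called. NDUFV2 was lower with cyclosporin A (-0.39) and at -0.05 and -0.20 with the others, not called. NDUFS1 was lower with atazanavir (-0.27) and nefazodone (-0.47) and at -0.11 with cyclosporin A, not called. The NDUFS1 call with atazanavir was lost without ATA replicate 1 or 2 (0.054 and 0.053) or ATA+BA replicate 2 (0.083), the NDUFV1 call with cyclosporin A was lost without CsA replicate 3 (0.054), and NDUFV2 passed with nefazodone without NEFA replicate 1 (-0.26, adjusted p = 0.032). With probe sets averaged, the NDUFS1 call with atazanavir and the NDUFV1 call with cyclosporin A were lost too.

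Of the 32 members 11 were lower in all 3 comparisons, against 1.32% of all genes. They were the core subunits NDUFS3 and NDUFS7, the matrix arm subunits NDUFA9 and NDUFA12, the proximal subunits NDUFA8 and NDUFC1, and the distal subunits NDUFB1, NDUFB3, NDUFB7, NDUFB10 and NDUFB11. In at least 1 comparison 31 were lower, against 28.1% of all genes, and NDUFA11 was the exception. NDUFA11 (0.20) and NDUFA6 (0.25) were the 2 members higher when the mixture joined cyclosporin A. NDUFA6 differed between the drugs, since it was lower when the mixture joined atazanavir (-0.44) and nefazodone (-0.70). The NDUFA11 call was lost without CsA replicate 2 (0.055) or CsA+BA replicate 1 (0.067). With probe sets averaged neither of these 2 was called (0.08 for each). Among the 11 lower with each drug, NDUFB3, NDUFB7 and NDUFB11 lost the nefazodone call without NEFA replicate 3. Other single arrays left out removed calls of NDUFA8, NDUFB3 and NDUFB11 with cyclosporin A, and of NDUFB7 and NDUFB11 with atazanavir. The nefazodone calls of NDUFB3 and NDUFB7 were lost without NEFA+BA replicate 2, and that of NDUFB7 also without NEFA+BA replicate 1. With probe sets averaged, the NDUFC1 and NDUFS7 calls with cyclosporin A and the NDUFB7 calls with atazanavir and nefazodone were lost.

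**Figure D3:**
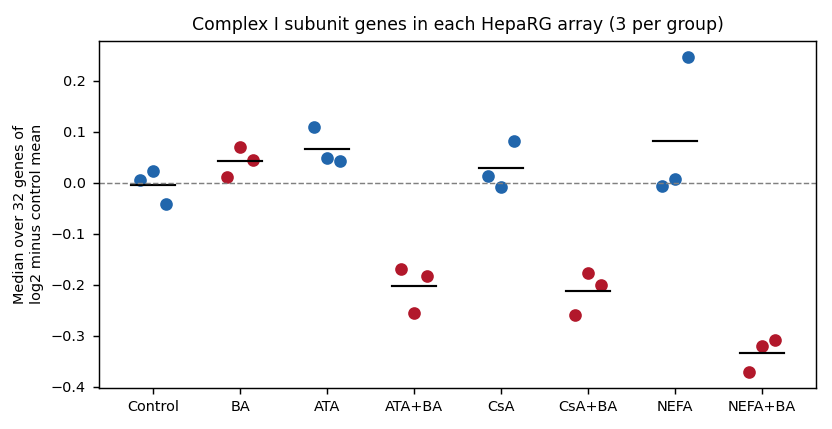
Median over the 32 members of the log2 value minus the control mean (y axis) in each of the 24 HepaRG arrays, by group (x axis); red points are groups with the bile acid mixture, blue points groups without it, and bars the group means. The 9 arrays with drug and mixture lie between -0.37 and -0.17, and the other 15 arrays between -0.04 and 0.25, the highest being NEFA replicate 3.

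The effect of the mixture depended on the drug background by the test of the difference itself, the interaction of drug and mixture. With atazanavir 13 members had a lower response to the mixture than in control cells, against 7.29% of all genes, with cyclosporin A 12 (15.0% of all genes) and with nefazodone 20 (7.31%). In each case 0 members had a higher response, against 5.07%, 10.9% and 4.57% of all genes. These 3 tests share the control and mixture arrays. NDUFS3 led all 3, at -0.90 (SE 0.15, limma adjusted p = 5.60e-04), -0.82 (3.97e-04) and -1.06 (1.04e-04). The second largest were NDUFA8 with atazanavir (-0.86), NDUFA3 with cyclosporin A (-0.68) and NDUFB10 with nefazodone (-0.83). Without NEFA replicate 3 the count with nefazodone was 19, and with probe sets averaged it was 14, all lower. The averaging removed the calls of NDUFB1, NDUFB6, NDUFB8, NDUFS1, NDUFS7, NDUFV1 and NDUFV3 and added that of NDUFB11. With 1 array left out, the count with cyclosporin A ran from 8 (as without CsA replicate 3) to 13 (without CsA replicate 2). With cyclosporin A the calls for NDUFA2, NDUFB1, NDUFC1 and NDUFV2 were each lost without any 1 of several arrays. The NDUFA2 and NDUFC1 calls with atazanavir were likewise lost. NDUFS7, which was among the largest falls with atazanavir, had an interaction of -0.40 there that was not called.

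**Figure D4:**
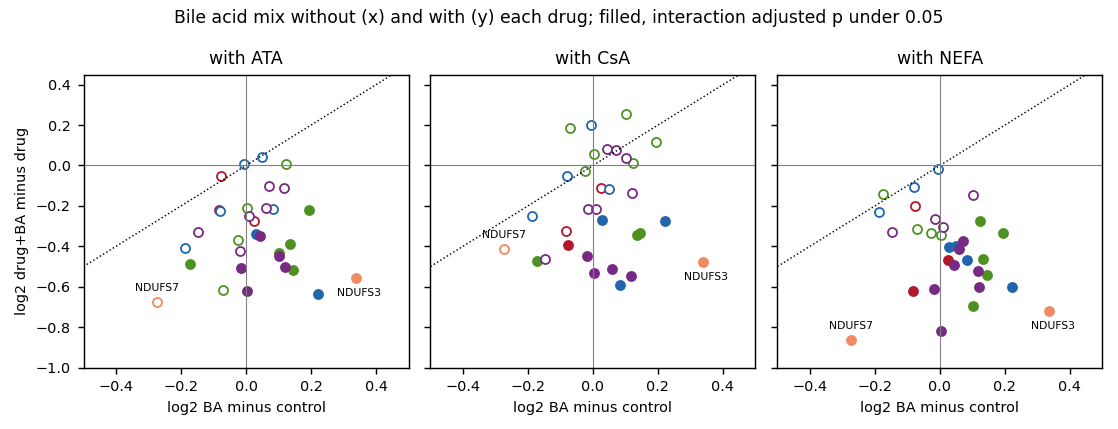
Log2 difference due to the bile acid mixture in the presence of each drug (y axis) against that in control cells (x axis, the same values in each panel), 1 point per HepaRG member, coloured by subunit position (dark red N core, orange Q core, green matrix arm, blue proximal and purple distal membrane arm); filled points have an interaction with a limma adjusted p under 0.05. Points on the dotted line would respond equally; the filled points, 13, 12 and 20, lie below it, with NDUFS3 farthest.

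The promoters of 4 members are printed from RefSeq (GRCh38.p14): NDUFS3, first in the 3 interactions, and NDUFS7, NDUFA8 and NDUFB10, the leading falls when the mixture joined atazanavir or nefazodone. Each window runs from 250 bases before to 50 bases after the annotated start. Capitals mark matches, on either strand, to motifs of factors known to act on nuclear genes of respiration or found at many housekeeping promoters. The motifs were CGCANGCG for NRF1, CCGGAAG for ETS factors such as GABPA, AANATGGC for YY1, and AAGGTCA for estrogen-related receptors. The windows are chr11:47578824-47579123 on the plus strand for NDUFS3, chr9:122159730-122160029 on the minus strand for NDUFA8, chr19:1383657-1383956 on the plus strand for NDUFS7 and chr16:1959288-1959587 on the plus strand for NDUFB10.
NDUFS3: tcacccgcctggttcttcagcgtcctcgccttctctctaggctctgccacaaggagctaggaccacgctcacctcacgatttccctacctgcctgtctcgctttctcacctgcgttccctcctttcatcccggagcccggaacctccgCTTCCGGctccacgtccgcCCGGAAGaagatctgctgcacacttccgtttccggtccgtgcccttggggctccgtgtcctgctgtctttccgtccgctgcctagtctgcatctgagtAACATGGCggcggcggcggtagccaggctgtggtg
NDUFA8: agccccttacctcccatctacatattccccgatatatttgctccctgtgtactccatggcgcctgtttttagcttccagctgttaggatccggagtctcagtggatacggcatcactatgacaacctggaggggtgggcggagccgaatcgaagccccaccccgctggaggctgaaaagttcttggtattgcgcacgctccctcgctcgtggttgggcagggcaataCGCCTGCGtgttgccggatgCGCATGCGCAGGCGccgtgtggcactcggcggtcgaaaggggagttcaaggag
NDUFS7: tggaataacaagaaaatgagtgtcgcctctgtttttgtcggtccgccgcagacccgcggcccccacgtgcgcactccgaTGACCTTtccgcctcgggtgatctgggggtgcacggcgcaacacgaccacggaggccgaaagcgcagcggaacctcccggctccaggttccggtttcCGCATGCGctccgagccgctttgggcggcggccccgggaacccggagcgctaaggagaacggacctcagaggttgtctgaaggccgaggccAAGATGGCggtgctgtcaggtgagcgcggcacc
NDUFB10: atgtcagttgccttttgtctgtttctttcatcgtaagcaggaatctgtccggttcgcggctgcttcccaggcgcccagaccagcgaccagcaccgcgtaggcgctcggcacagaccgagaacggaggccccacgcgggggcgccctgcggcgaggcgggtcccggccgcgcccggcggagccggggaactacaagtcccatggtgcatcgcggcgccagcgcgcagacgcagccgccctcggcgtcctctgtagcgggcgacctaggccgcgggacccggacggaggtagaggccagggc
NDUFS3 holds the ETS letters 2 times and the YY1 letters 1 time, NDUFA8 holds the NRF1 letters 3 times, of which 2 overlap, NDUFS7 holds 1 NRF1 match, 1 YY1 match and 1 receptor half-site, and the NDUFB10 window holds none of these letters. No motif is common to the 4 windows, and the letters alone do not show binding. A promoter was listed for 30 of the 32 members. The YY1 letters occurred in 12 of them (40%) and in 7.97% of the 27305 gene symbols of the table, the NRF1 letters in 11 (36.7%, against 12%), the ETS letters in 5 (16.7%, against 12.2%) and the half-site in 4 (13.3%, against 4.8%). The letters were settled after other spellings had been scanned, and the symbols of the table were not matched to the members in signal. These shares are descriptions without a test.

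**Figure D5:**
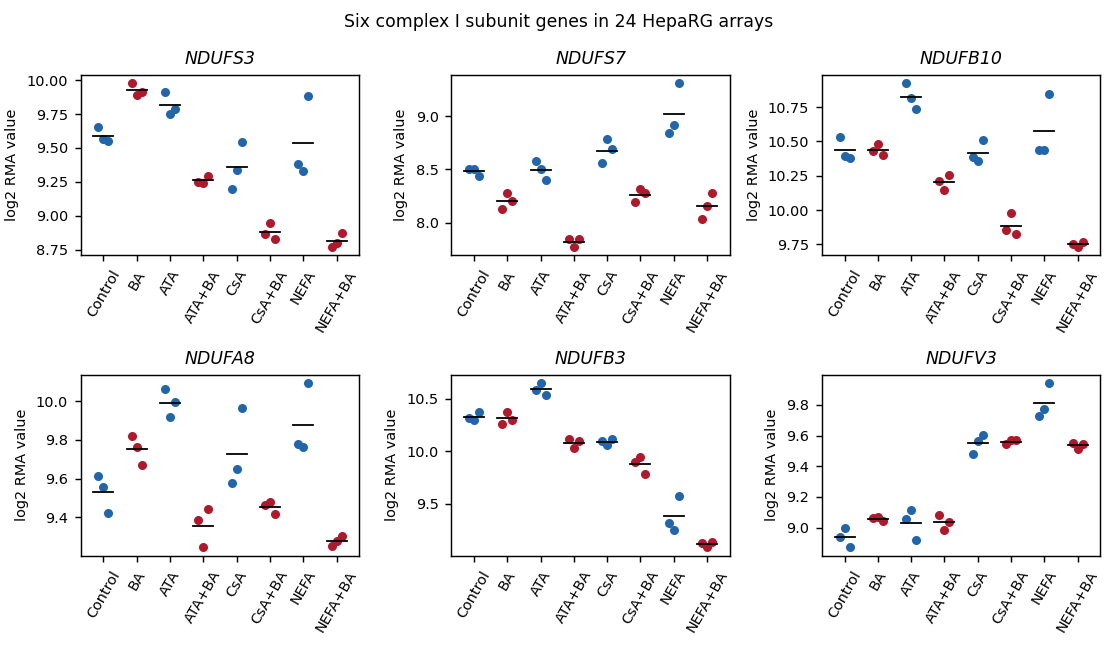
Log2 values (y axis) of NDUFS3, NDUFS7, NDUFB10, NDUFA8, NDUFB3 and NDUFV3 in each of the 24 HepaRG arrays by group (x axis); red points are groups with the mixture, blue points groups without it, and bars the means of 3 arrays. NDUFS3 is highest with the mixture alone (9.89 to 9.98) and lowest with nefazodone and the mixture (8.77 to 8.87), while NDUFV3 is high in all 4 groups with cyclosporin A or nefazodone.

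Against the mixture alone, most called members were lower in cells with drug and mixture. Atazanavir lowered 14 members and raised 0 (13.3% and 15.1% of all genes). Without BA replicate 2 the count was 9, and after quantile normalization 23, all lower. Cyclosporin A lowered 18 and raised 6 (25.5% and 25.7%), and nefazodone lowered 21 and raised 2 (24.8% in each direction). These comparisons share the mixture arrays. NDUFS3 fell in each, by 0.67, 1.05 and 1.12 on the log2 scale, the last 2 being 2.07-fold and 2.17-fold. NDUFB5, a distal arm subunit, measured 11.18, 11.26 and 11.21 with the mixture and 10.60, 10.58 and 10.70 with atazanavir added, lower by 1.502-fold. NDUFB1 measured 11.74, 11.78 and 11.89 with the mixture and 10.91, 10.93 and 10.98 with cyclosporin A added, lower by 1.82-fold. NDUFB3 measured 10.27, 10.38 and 10.30 with the mixture and 9.13, 9.08 and 9.14 with nefazodone added, lower by 2.30-fold (limma adjusted p = 9.16e-12). In these genes the groups were apart.

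The other core subunits against the mixture alone were split. NDUFV1 was lower with all 3 drugs (-0.37, -0.45 and -0.37), NDUFV2 with cyclosporin A (-0.71) and nefazodone (-0.36) and at 0.01 with atazanavir. NDUFS1 was lower with cyclosporin A (-0.35) and at -0.19 and -0.07 with atazanavir and nefazodone, not called. NDUFS7 was lower with atazanavir (-0.38) and at 0.06 and -0.05 with cyclosporin A and nefazodone, not called. With probe sets averaged, the NDUFV1 calls with cyclosporin A and nefazodone and the NDUFS7 call with atazanavir were lost. The members raised included NDUFV3, which was higher with cyclosporin A (0.50) and nefazodone (0.48).

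The drugs were also compared with each other without the mixture, at their different doses. Atazanavir against cyclosporin A gave 13 members higher and 3 lower (19.8% and 20.3% of all genes). NDUFA5, at 10.97, 10.997 and 11.35 with atazanavir, differed from cyclosporin A by 0.64, a call lost without CsA replicate 2 (0.30, adjusted p = 0.091) or ATA replicate 3 (0.51, 0.060). NDUFV3, at 9.05, 9.11 and 8.92 with atazanavir, was lower than with cyclosporin A by 1.44-fold. Atazanavir against nefazodone gave 13 higher and 9 lower (19.7% and 20.1%). The larger side turned when single arrays were left out, to 6 and 11 without NEFA replicate 1, 6 and 9 without NEFA replicate 2 and 7 and 9 without ATA replicate 1, and to 5 and 8 with only these 2 groups fitted; without NEFA replicate 3 it was 15 and 9. The leading members were NDUFB3 (10.59, 10.65 and 10.54 with atazanavir, higher by 2.32-fold) and NDUFV3 (lower by 1.73-fold). Cyclosporin A against nefazodone gave 8 higher and 10 lower (17.6% and 19.4%), and 9 and 6 after quantile normalization, 5 and 11 without NEFA replicate 1, 5 and 10 without NEFA replicate 2 and 11 and 8 without NEFA replicate 3. Here NDUFB3 (10.10, 10.06 and 10.12 with cyclosporin A) was higher by 1.64-fold. NDUFA6 measured 11.16, 11.06 and 11.02 with cyclosporin A and 11.67, 11.69 and 11.95 with nefazodone, lower by 1.61-fold.

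Complexes II to V were measured by 35 genes in HepaRG cells. The mixture alone called 0 of them, against 10.1% of all genes. Atazanavir raised 10 and lowered 3 (22.2% and 13.2% of all genes), and cyclosporin A raised 0 and lowered 10 (22.2% and 18.5%). Nefazodone raised 10 and lowered 4 (25% and 20.6%). Addition of the mixture lowered 27 with atazanavir, 25 with cyclosporin A and 29 with nefazodone, and raised 0 each time (medians -0.38, -0.38 and -0.50). Of all genes 10.3%, 18.4% and 7.92% were lower, and 8.95%, 18.4% and 7.55% higher. NDUFAB1 was higher with atazanavir (0.20) and cyclosporin A (0.24), and lower when the mixture joined atazanavir (-0.46) or nefazodone (-0.22). COXFA4, the former NDUFA4, was lower in the last of these comparisons (-0.45, limma adjusted p = 0.00101) and not called in the other 2 additions, in the single drugs or with the mixture alone.

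The assembly factors of complex I, which build the enzyme but are not part of it, were measured by 19 genes. Their difference from the subunits was not tested. Of the 19, the mixture alone called 0, against 10.1% of all genes. Atazanavir raised 11 and lowered 1 (22.2% and 13.2% of all genes), and cyclosporin A raised 11 and lowered 1 (22.2% and 18.5%). Nefazodone raised 14 and lowered 0 (25% and 20.6%). NDUFAF2, a paralogue of NDUFA12 that acts late in assembly, led each time, at 1.05, 1.1996 and 1.79 (limma adjusted p = 1.205e-07, 9.47e-09 and 7.82e-12). NDUFAF4 was higher by 0.81 with atazanavir and 1.46 with nefazodone, NDUFAF1 by 1.04 with cyclosporin A, and NDUFAF5, a hydroxylase of NDUFS7, by 1.05 with nefazodone. When the mixture was added to atazanavir, 7 were lower and 0 higher (10.3% and 8.95% of all genes). Addition to cyclosporin A gave 5 lower and 5 higher (18.4% each), and addition to nefazodone 6 lower and 0 higher (7.92% and 7.55%). NDUFAF5 was lower in the first and last (-0.68 and -0.73), and with cyclosporin A NDUFAF7 (0.66) and NDUFAF2 (0.58) were higher and ACAD9 (-0.62) lower.

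Regulators of mitochondrial gene expression also moved. PPARGC1A, the coactivator PGC-1alpha, was higher with atazanavir (0.70), cyclosporin A (0.40) and nefazodone (1.13). It was lower when the mixture was added to each of them, by -1.42, -2.04 and -0.97 (limma adjusted p = 3.11e-07, 2.65e-10 and 3.44e-05). ESRRA, the estrogen-related receptor that it coactivates, was higher with the drugs (0.49, 0.55 and 1.46) and lower after addition (-0.53, -0.69 and -0.63). With the mixture alone neither was called (0.31 and 0.11). NRF1 was higher with atazanavir (0.50), lower when the mixture joined it (-0.41) and higher when the mixture joined cyclosporin A (0.62). TFAM, which packages mitochondrial DNA, was higher with atazanavir (0.35) and lower with cyclosporin A (-0.70) and nefazodone (-0.65). GABPA was lower with cyclosporin A (-0.80) and nefazodone (-0.70). PPARGC1B was lower with cyclosporin A (-0.47), with nefazodone (-0.82) and when the mixture joined cyclosporin A (-1.08).

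Hepatocyte markers moved with the treatments as well. All 7 were lower with each drug (medians -3.56 with atazanavir, -1.56 with cyclosporin A and -1.92 with nefazodone). Of all genes 13.2%, 18.5% and 20.6% were lower with these drugs. With the mixture alone 3 of 7 were lower, where 10.1% of all genes were called in either direction. Their array means, 12.4 to 12.7 in control cells, were 9.39 to 9.77 with atazanavir, 10.6 to 11.3 with cyclosporin A and 10.03 to 10.6 with nefazodone. When the mixture was added, 6 hepatocyte markers were higher with atazanavir, 6 were lower with cyclosporin A and 0 were called with nefazodone, while complex I members fell with each drug. Of all genes 8.95% were higher with atazanavir and 18.4% lower with cyclosporin A, and with nefazodone 7.55% were higher and 7.92% lower. The gap between 3′ and 5′ probe sets of GAPDH, a sign of RNA integrity, averaged 0.49 to 0.66 over the 8 groups. It was 0.48 to 0.56 in control cells, and higher without overlap with the mixture alone (0.58 to 0.70) and nefazodone alone (0.61 to 0.64). The same gap for actin averaged 1.32 to 1.79. It was 1.73 to 1.88 in the CsA+BA arrays and 1.28 to 1.69 in the CsA arrays, without overlap. With atazanavir and nefazodone the actin gaps with and without the mixture overlapped. Atazanavir alone had actin gaps of 1.54 to 1.67, above the 1.29 to 1.49 of control cells. The part of these changes in the complex I results was not tested.

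Over the 8 group means, 3 genes outside the rule followed the mean of the 32 members most closely. UQCR10, a subunit of complex III, had a Pearson correlation of 0.95 with it, and its group means ran from 10.9 to 11.9. The RNA genes LINC03021 (0.96) and C10orf95-AS1 (0.94) varied over narrower and dimmer ranges, 2.41 to 2.59 and 4.32 to 5.05. These correlations are descriptions over 24 arrays that all genes share.

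Across the species, 30 members were measured in both. In mouse liver 19 of these were lower after ligation. With atazanavir 13 of those 19 were also among the 21 lowered when the mixture was added, with cyclosporin A 12 of 19 among 18, and with nefazodone 16 of 19 among 24. Of the members lowered in each addition, 61.9%, 66.7% and 66.7% were thus lower in the mouse, close to the 63.3% of all 30, so that the overlap is about that of the members at large. Among the 11 members lower in all 3 HepaRG additions, NDUFA9, NDUFA12, NDUFB1, NDUFB3, NDUFB10, NDUFB11, NDUFS3 and NDUFS7 were also lower in the mouse. The mouse call of NDUFB1 depended on single arrays. NDUFA8, NDUFC1 and NDUFB7, the rest of the 11, were not called in mouse liver.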

How the data were processed

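The members and gene lists were chosen with earlier results of these data known. The values deposited by the authors are log2 signals per probe set made by RMA, per the submitters' processing notes, in which no version is given. RMA subtracts background, quantile-normalizes arrays and summarises probes, which compresses differences of dim or very bright probe sets. The 12 mouse and 24 human arrays had 45101 and 54675 probe sets. Genes were tested with limma 3.58.1 (R 4.3.3, lmFit and eBayes, moderated 2-sided test, one model of group means per species) in 17 comparisons, adjusted by Benjamini-Hochberg over all genes of the species. Arrays carry no read depth; the number of arrays limits precision. The procedure was tested on simulated data. Values in every array are given for the called members with the largest differences, 6 in mouse, 4 per single treatment against control and 2 elsewhere, or the 1 largest where none was called; core subunits are always named. Alternatives were quantile normalization, the dimmest 1 in 3 of genes left out, the mean of a gene's probe sets, only the groups compared, a replicate block, single arrays left out and a wider reading of the rule. Promoter motif letters were settled after other spellings had been scanned. Arrays with equal replicate number deviated together (every pair correlation above 0.1) in BA against control (0.19 to 0.26), NEFA against control (0.11 to 0.18), NEFA+BA against NEFA (0.13 to 0.29) and CsA+BA against BA (0.11 to 0.13).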

Additional observations from a re-analysis of the deposited data

Results flagged for a closer look

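In mouse liver 4 arrays lay far from the other 5 of their group in 1 member each, by a gap test that chance passes in about 1 of 20 groups; 68 groups of 6 arrays were examined. Ndufa12 measured 10.5 in CBDL replicate 4, where the next lowest CBDL liver had 10.8. Ndufb11 measured 12.7 in sham replicate 5 against 12.4 in the next, Ndufb8 measured 11.8 in sham replicate 3 against 11.7, and Ndufv3 measured 12.2 in sham replicate 6, the lowest of its group by a small margin.

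The response to the bile acid mixture differed between control cells and drug-treated cells in the test of the difference. The members with such an interaction numbered 13 with atazanavir, 12 with cyclosporin A and 20 with nefazodone, all with a lower response beside the drug. NDUFS3 had -0.90, -0.82 and -1.06, NDUFA8 had -0.86 with atazanavir, NDUFA3 had -0.68 with cyclosporin A and NDUFB10 had -0.83 with nefazodone.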

How the results depend on the processing

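Of the 17 counts of called members, 211 values under other settings were computed, and 197 stayed within 1.5 times the reported count. The exceptions were these. For BA against control (0) quantile normalization gave 1, the dimmest 1 in 3 of genes left out 2, the mean of probe sets 1, only the groups compared 1 and the replicate block 1. With only the groups compared, CsA against control gave 4 in place of 14, CsA+BA against CsA 13 in place of 20, NEFA+BA against NEFA 16 in place of 25, ATA against CsA 9 in place of 16, ATA against NEFA 13 in place of 22 and CsA against NEFA 7 in place of 18; these fits use 6 of the 24 arrays. The mean of probe sets gave 13 for CsA+BA against CsA. ATA+BA against BA (14) gave 23 after quantile normalization and 9 to 13 with 1 array left out. The replicate block changed no other count by over 1.5 times (CBDL against sham 18, NEFA against control 21, NEFA+BA against NEFA 25, CsA+BA against BA 24).

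With probe sets averaged 9 called differences changed sign, and 0 of them stayed called. They were NDUFA2 for CsA (0.0962), NDUFS1 (-0.0948) and NDUFB4 (0.0328) for NEFA against control, NDUFA10 for CsA+BA against CsA (0.0140) and ATA+BA against BA (0.0474), NDUFA6 for CsA+BA against BA (-0.0451) and ATA against NEFA (0.0376), NDUFB4 for NEFA+BA against BA (0.0977) and NDUFC1 for CsA against NEFA (0.0663). Of the differences not called, averaged probe sets put NDUFS1 at -0.120 for BA and -0.160 for ATA against control, and NDUFS7 at 0.0677 for NEFA+BA against BA. After quantile normalization NDUFS7 was -0.0334 for ATA against control and NDUFV2 -0.0337 for ATA+BA against BA. With 1 array left out, NDUFS1 ran from -0.00826 to 0.0613 for BA, NDUFS7 from -0.0260 to 0.0627 for ATA, NDUFV2 from -0.0545 to 0.0216 for ATA and NDUFS3 from -0.234 to 0.0425 for NEFA against control. NDUFV2 ran from -0.0921 to 0.0142 for ATA+BA against ATA and from -0.0271 to 0.0723 for ATA+BA against BA, and NDUFS7 from -0.109 to 0.0134 for NEFA+BA against BA. The causes were not tested. Read with letters after the digits allowed, the rule took in Ndufa4l2 in the mouse (0.01, not called) and NDUFB2-AS1, NDUFV1-DT and NDUFV2-AS1 in the human table, 35 genes in each. Of these NDUFV2-AS1 (-0.51) was lower with CsA and NDUFV1-DT (-0.28) with NEFA. Signals near background or saturation limit what small differences can show.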
